A study of Drosophila melanogaster with 2 samples.

Results

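The set holds 10 genes of synaptic release and neurotransmitter reception, chosen by symbol: Snap25, Syx1A, comt and cpx of the SNARE machinery, brp and Rim of the active zone, the voltage-gated channel genes cac and para, and the receptor genes Rdl and nAcRbeta-64B. All 10 stood in both deposited tables, among 14210 genes. With "measured" meaning a mean of at least 1 FPKM over the libraries (read fragments corrected for transcript length and library size), 7 of the 10 were measured, and brp, Rim and para were below this limit. The libraries came from brains of Drosophila melanogaster larvae late in the last instar, 1 per genotype. Both were labelled with an egg-laying period of 24 h and a temperature of 25 °C. The osa RNAi flies carried UAS-CD8::GFP and an RNAi transgene against osa (VDRC TID:7810), and the wild type flies (strain w1118) carried UAS-CD8::GFP alone. In both genotypes the transgenes were driven by worniu-Gal4 together with ase-Gal80, which limits expression to type II neuroblasts and their progeny, and the strongly GFP-positive cells were sorted. The osa RNAi sort is labelled as neuroblasts, reverted neuroblast-like cells and intermediate neural progenitors, and the wild type sort as neuroblasts, intermediate progenitors and ganglion mother cells without neurons. The libraries therefore differ in labelled cell types as well as in genotype, and these cannot be told apart. How many animals were pooled for each library is not stated.

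In a mature neuron, transmitter is released when a synaptic vesicle fuses with the plasma membrane, a step carried out by SNARE proteins on both membranes. Sodium channels carry the action potential to the terminal, calcium channels opened by it trigger fusion, and scaffold proteins of the active zone hold vesicles and channels together. On the receiving side, ligand-gated channels such as nicotinic acetylcholine receptors and GABA receptors convert the transmitter into a current. A type II neuroblast divides to give intermediate progenitors, these give ganglion mother cells, and ganglion mother cells give neurons, the cells in which synaptic genes are best known. The comparison shows the level of these transcripts in sorts of progenitor cells, and how osa RNAi and wild type differed.

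The widths of the deposited FPKM bounds gave an implied read number for each gene, 15707014 in all for osa RNAi and 10114559 for wild type. Over 3933 genes with a single annotated transcript, 1 FPKM stood for a median of 1.54 times as many implied reads in osa RNAi as in wild type. This factor was used to put the read numbers of both libraries on 1 scale. The bounds and all intervals below cover counting error only. The targeted gene osa, which encodes a subunit of the Brahma chromatin remodelling complex, was at 15.6 FPKM in osa RNAi and 31.3 FPKM in wild type. The neuroblast genes dpn (67.3 FPKM in osa RNAi and 61.97 in wild type) and wor (89.3 and 85.2 FPKM) were present in both sorts. Some other neuroblast and progenitor markers differed more between the libraries, as given below. With 1 library per genotype there is no replicate check and no test between genotypes.

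Synaptic genes differed in both directions. A gene was counted as past the 2-fold rule when its difference in log2(FPKM + 1), osa RNAi minus wild type, was at least 1 in size, it was measured with an estimate marked OK in both libraries, and its deposited bounds did not overlap. By this rule comt was higher in osa RNAi, Snap25, Rdl and nAcRbeta-64B were lower, and Syx1A, cpx and cac did not pass. That is 4 of 7 measured genes, where 14.6% of all 7144 measured genes passed in either direction, 7.78% as higher and 6.79% as lower. The genes of this set were named with earlier results of these libraries known, so their count carries no weight of its own against that share. The median difference was -0.24 over the 7 measured genes and -0.19 over all 10, and 0.039 over all measured genes.

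**Figure D1:**
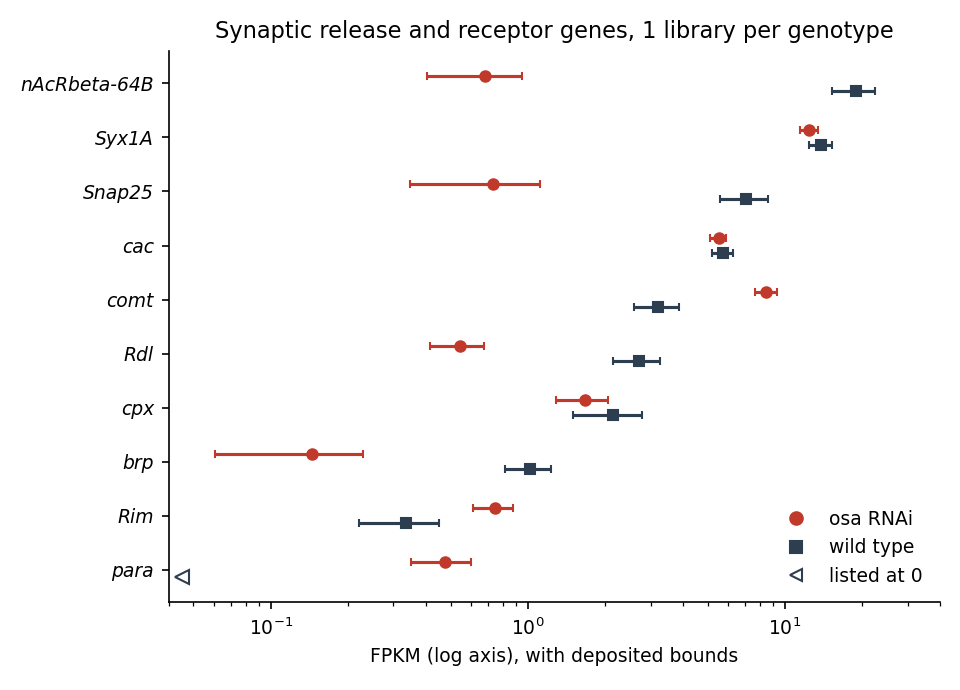
FPKM of each gene in the osa RNAi library (circles) and the wild type library (squares), on a log axis with the deposited bounds as bars; the open triangle marks a value listed at 0. Bounds are apart for nAcRbeta-64B, Snap25, Rdl and brp, which lie lower in osa RNAi, and for comt and Rim, which lie higher, whereas those of Syx1A, cac and cpx overlap.

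Within the SNARE machinery, the plasma membrane SNARE gene Snap25 (FBgn0011288, 3L from 24067329 to 24292305) was among the genes that were lower in osa RNAi. Its level was 0.732 FPKM in osa RNAi (bounds 0.349 to 1.12) and 7.08 FPKM in wild type (5.57 to 8.60), behind which stood 14.6 and 87.0 implied reads. The ratio of the FPKM values was 9.68-fold lower in osa RNAi, with a 95% counting interval of 5.56 to 16.9, and the difference in log2(FPKM + 1) was -2.22. The locus overlaps no other gene in the files.

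The gene comt (FBgn0000346, X from 13153030 to 13156521) was higher in osa RNAi. It encodes NSF1, the ATPase that takes spent SNARE complexes apart. Its level was 8.45 FPKM in osa RNAi (7.63 to 9.28) and 3.22 FPKM in wild type (2.59 to 3.86), from 423 and 103 implied reads. The bounds were apart, the FPKM ratio was 2.62-fold higher in osa RNAi (2.12 to 3.26) and the difference was 1.16. This locus has 1 annotated transcript in the files and overlaps no other gene.

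The bounds of the remaining pair of SNARE machinery genes overlapped between the libraries. Syx1A (FBgn0013343, 3R from 19927322 to 19931465), the plasma membrane syntaxin that pairs with SNAP-25, was at 12.4 FPKM in osa RNAi (11.4 to 13.5) and 13.8 FPKM in wild type (12.4 to 15.3), with overlapping bounds and a difference of -0.14. Its locus lies within that of the translation repressor gene 4EHP (21.97 FPKM in osa RNAi and 24.7 in wild type), so how reads were divided between them is uncertain. The complexin gene cpx (FBgn0041605, 3R from 105906 to 130349), whose product clamps SNARE complexes before fusion, was at 1.66 FPKM in osa RNAi (1.28 to 2.04) and 2.14 FPKM in wild type (1.498 to 2.77), again with overlapping bounds (difference -0.24); the small gene CG9780 lies within its locus. The plasma membrane SNARE partners stood at unequal levels within each library: Snap25 was at 0.732 FPKM beside 12.4 FPKM of Syx1A in osa RNAi, and at 7.08 FPKM beside 13.8 FPKM in wild type.

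Both genes of the SNARE machinery past the rule have a close relative that differed in the opposite direction. Snap24, a SNAP-25 paralog used in general secretion, was at 32.3 FPKM in osa RNAi (30.1 to 34.4) and 16.5 FPKM in wild type (14.6 to 18.5), a difference of 0.92, short of the rule by FPKM, whereas its implied reads were 2.03-fold higher. Snap25 made up 2.22% of the summed FPKM of the pair in osa RNAi and 29.99% in wild type, and the sum was 32.98 and 23.6 FPKM. Nsf2, the second NSF gene of the fly, was at 7.22 FPKM in osa RNAi (6.4 to 8.04) and 10.3 FPKM in wild type (9.10 to 11.5), a difference of -0.46. The share of comt in the summed FPKM of both NSF genes was 53.9% in osa RNAi and 23.8% in wild type, with sums of 15.7 and 13.5 FPKM. Reads that match both copies could have been split between them in the authors' processing, and the sizes of these pairs are uncertain to that extent. Among vesicle SNARE genes, the neuronal n-syb was at 2.78 FPKM in osa RNAi and 3.86 in wild type, and the widely used Syb at 304 and 317 FPKM. The syntaxin gene Syx4 was at 0.415 FPKM in osa RNAi and listed at 0 in wild type.

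**Figure D2:**
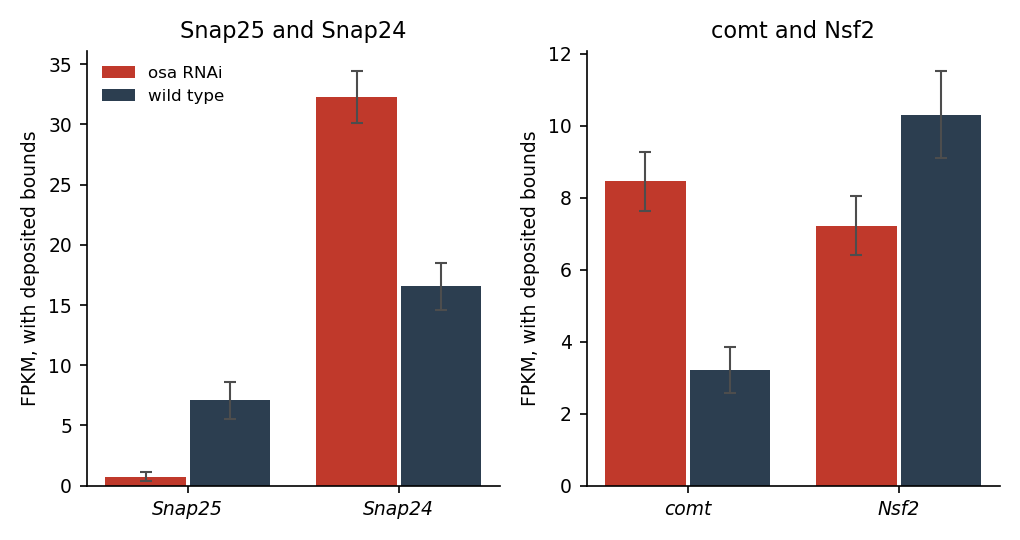
FPKM of Snap25 and its paralog Snap24 (left) and of comt and its paralog Nsf2 (right) in the osa RNAi library (red) and the wild type library (dark blue); bars start at 0 and error bars are the deposited bounds. Within each pair the genes differ in opposite directions, Snap25 lower and Snap24 higher in osa RNAi, comt higher and Nsf2 lower.

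Of 23 genes of the SNARE and fusion machinery in the files, 17 were measured. By the 2-fold rule comt was higher, Snap25 and Syt4 were lower and 14 did not pass. That is 3 of 17, where 14.6% of all 7144 measured genes passed. The same share stands beside the counts of the lists that follow. The synaptotagmin gene Syt4 was at 0.813 FPKM in osa RNAi and 3.32 in wild type (difference -1.25). Syt1, the calcium sensor of fast release, was at 1.63 FPKM in osa RNAi and 0.578 in wild type, and the dense-core vesicle priming gene Caps at 9.69 and 19.5 FPKM. Syt7 was at 2.40 FPKM in osa RNAi and 4.84 in wild type, 2.02-fold lower by FPKM and 1.31-fold by implied reads. The list median was -0.35, or -0.36 over the 13 measured genes outside the set. Of 20 measured genes of the general trafficking SNAREs and NSF paralogs, Syx6 alone passed, as higher (15.9 FPKM in osa RNAi and 7.02 in wild type), with a list median of -0.043. The next largest differences in that list after Snap24 were those of Vti1 (8.41 FPKM in osa RNAi and 4.03 in wild type) and Syx13 (14.4 and 24.5 FPKM).

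The pair of active zone scaffold genes stood under the limit of 1 FPKM on average and differed in opposite directions. Bruchpilot (brp, FBgn0259246, 2R from 5391293 to 5428822), the core protein of the fly T-bar, was at 0.145 FPKM in osa RNAi (0.0605 to 0.229) and 1.02 FPKM in wild type (0.813 to 1.23), from 11.8 and 95.5 implied reads. The FPKM ratio was 7.07-fold lower in osa RNAi (3.87 to 12.9), although the difference in log2(FPKM + 1), which shrinks ratios of values near or under 1, was -0.82. Rim (FBgn0053547, 3R from 13698470 to 13742300), which tethers vesicles and calcium channels, was at 0.743 FPKM in osa RNAi (0.611 to 0.874) and 0.336 FPKM in wild type (0.221 to 0.451), from 128 and 34 implied reads. Its FPKM ratio was 2.21-fold higher in osa RNAi (1.51 to 3.23). The bounds of both genes were apart between the libraries. CG12347 and CG43445, within the Rim locus, were listed at 0 in both. Of 17 active zone genes in the files, 8 were measured, none of them in the set. Their count stands beside the 14.6% of all measured genes that passed. Liprin-gamma, of a family of active zone scaffold proteins, was lower, at 0.229 FPKM in osa RNAi and 2.85 in wild type, and 7 did not pass. Its locus overlaps another gene, and with overlapping loci left out 0 of the 4 remaining measured genes of the list passed. Among the 7 were RhoGAP100F, the fly Syd-1 gene (7.50 FPKM in osa RNAi and 12.7 in wild type), the ubiquitin ligase gene hiw (3.97 and 6.65 FPKM) and Liprin-beta (10.4 and 7.21 FPKM). The list median was -0.11.

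The calcium channel gene cac had overlapping bounds in the libraries. It encodes the pore subunit of the channel that triggers release (FBgn0263111, X from 11825982 to 11879120) and was at 5.52 FPKM in osa RNAi (5.12 to 5.92) and 5.75 FPKM in wild type (5.21 to 6.30), from 762 and 449.9 implied reads. The FPKM ratio, osa RNAi over wild type, was 0.959 with an interval of 0.853 to 1.08, and the difference was -0.051. The calcium channel gene Ca-alpha1D was at 0.223 FPKM in osa RNAi and 0.848 in wild type.

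The sodium channel gene para (FBgn0264255, X from 16352900 to 16421447), which carries the action potential in flies, was at 0.475 FPKM in osa RNAi (0.351 to 0.599) from 59.1 implied reads, and was listed at 0 in wild type. At an equal level the wild type library would have held 38.4 reads of para. Of 572 genes with 20 to 40 reads expected in this way, 35.8% were listed at 0 in wild type, and no ratio is given. Genes of the TipE family, named for the accessory subunit of the para channel, were also near or at 0 in 1 library or the other. Teh2 was at 4.33 FPKM in osa RNAi and 0.485 in wild type. Teh3 was at 1.78 FPKM in osa RNAi and listed at 0 in wild type, where its expected reads fell in the same range as those of para. In contrast, tipE itself was listed at 0 in osa RNAi and at 0.899 FPKM in wild type. Teh4 was likewise listed at 0 in osa RNAi and at 1.17 FPKM in wild type. For tipE and Teh4, 40 to 80 reads were expected in osa RNAi at an equal level, where 24.2% of 563 such genes were listed at 0. The loci of tipE, Teh2, Teh3 and Teh4 overlap other genes, and Teh1 was listed at 0 in both libraries.

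Of 29 voltage-gated channel genes and their partners in the files, 7 were measured. Teh2 and the sodium leak channel gene na were higher, Ih was lower and 4 did not pass, cac among them. Beside these, 7.78% of all measured genes were higher and 6.79% were lower. na was at 7.58 FPKM in osa RNAi and 3.25 in wild type, just past the rule (difference 1.01). Ih, a cation channel opened by hyperpolarization, was at 0.302 FPKM in osa RNAi and 3.39 in wild type; its implied reads were 4.11-fold lower, against 11.2-fold by FPKM. ClC-a, a chloride channel gene, was at 1.38 FPKM in osa RNAi and 0.661 in wild type. The list median was 0.50. Without overlapping loci, Teh2 among them, 1 gene of the list was higher and 1 was lower. Rescaling osa RNAi by the upper quartile or by the median ratio left 5 genes higher and 6 lower over all 8 lists described here and in the closing section, against 6 and 6 as deposited; na was the gene that fell short.

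Both receptor genes of the set were lower in osa RNAi. The GABA receptor gene Rdl (FBgn0004244, 3L from 9138938 to 9175247), a chloride channel subunit and the target of cyclodiene insecticides, was at 0.545 FPKM in osa RNAi (0.416 to 0.673) and 2.70 FPKM in wild type (2.14 to 3.27). That is 4.96-fold lower (3.65 to 6.75), a difference of -1.26. The nicotinic acetylcholine receptor gene nAcRbeta-64B (FBgn0000038, 3L from 4429370 to 4435999), a beta subunit, was at 0.678 FPKM in osa RNAi (0.407 to 0.949) and 18.8 FPKM in wild type (15.2 to 22.4). It was 27.8-fold lower by FPKM (17.98 to 42.9), a difference of -3.56. It had the highest FPKM of the 10 genes in wild type and the seventh highest in osa RNAi. Neither locus overlaps another gene in the files.

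The size of both receptor differences depended on the unit. For nAcRbeta-64B, 1 FPKM stood for 36.9 implied reads in osa RNAi and 5.84 in wild type, so that 25.0 implied reads in osa RNAi and 110.0 in wild type lay behind a 27.8-fold ratio of FPKM. Scaled by depth alone, these reads were 6.76-fold lower in osa RNAi (4.38 to 10.4). For Rdl, 1 FPKM stood for 132 implied reads in osa RNAi and 34.1 in wild type, and the 72.0 and 92.2 implied reads were 1.97-fold lower in osa RNAi after scaling (1.45 to 2.68), just short of 2-fold. Since FPKM divides reads by transcript length, a gene with transcripts of unequal length can have a different number of reads per FPKM in each library. The files list 2 transcripts for nAcRbeta-64B, which by identifier measure 818 and 2460 bases in the BDGP6 annotation. Genes with 1 transcript within 5% of 818 bases had a median of 13.7 implied reads per FPKM in osa RNAi and 9.0 in wild type, and those near 2460 bases had 41.0 in osa RNAi and 26.5 in wild type. The osa RNAi value of nAcRbeta-64B (36.9) lay between the medians of both lengths in that library, and its wild type value (5.84) lay below that of the shorter length. The 3 transcripts of Rdl measure 3683, 3821 and 8583 bases in that annotation. Genes with 1 transcript near 3683 bases had 57.9 implied reads per FPKM in osa RNAi and 37.2 in wild type, and the 5 genes near 8583 bases had 139 in osa RNAi and 88.4 in wild type. The osa RNAi value of Rdl (132) lay nearer the median of the longest transcript, and its wild type value (34.1) lay just below that of the shortest. Whether transcript use sets these differences was not tested. Levels of single transcripts were not analysed here.

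**Figure D3:**
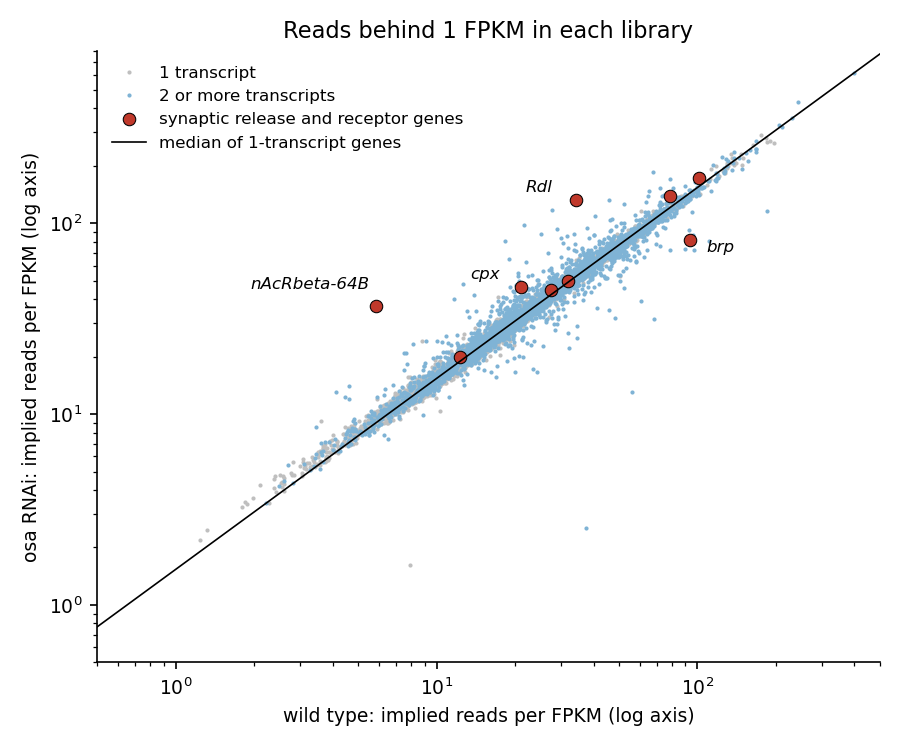
Implied reads per FPKM in osa RNAi (vertical axis) and wild type (horizontal axis), both log axes, for genes above 0 in both libraries with 1 transcript (grey) or more (blue), and for 9 genes of the set (red); the line is the median ratio of genes with 1 transcript. nAcRbeta-64B (36.9 in osa RNAi and 5.84 in wild type) and Rdl (132 and 34.1) lie above the line, and brp (81.9 and 93.5) lies below it.

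Of 35 ionotropic receptor genes in the files, 8 were measured. Rdl and nAcRbeta-64B were lower, GluRIIB was higher and 5 did not pass, where 6.79% of all measured genes were lower and 7.78% higher. The glutamate receptor gene GluRIIB, known from the neuromuscular junction, was at 7.18 FPKM in osa RNAi and 2.42 in wild type. CG9935 was at 2.5 FPKM in osa RNAi and 0.942 in wild type, CG11155 at 3.76 and 2.70 FPKM, and the nicotinic subunit gene nAcRalpha-34E at 3.30 and 4.22 FPKM. Other nicotinic beta subunit genes were low or not seen: nAcRbeta-96A was at 0.380 FPKM in osa RNAi and 0.793 in wild type, and nAcRbeta-21C was listed at 0 in both. The list median was -0.22, or 0.08 over the 6 measured genes outside the set. Listed at 0 were 17 of the 35 genes in osa RNAi and 15 in wild type, 11 of them in both.

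Counting implied reads in place of FPKM, an alternative chosen after these values were seen, gave ratios that differed from those of FPKM for some genes of the set. The depth-scaled reads were 9.17-fold lower in osa RNAi for Snap25 (5.26 to 15.96), 12.4-fold lower for brp (6.78 to 22.7), 2.67-fold higher for comt (2.15 to 3.31) and 2.44-fold higher for Rim (1.67 to 3.57). Among measured genes, Snap25, nAcRbeta-64B and comt passed the 2-fold rule on this scale and Rdl did not, that is 3 of 7, where 14.9% of all 6817 measured genes above 0 in both libraries passed, 7.79% as higher and 7.07% as lower. The ratios of osa RNAi over wild type were 0.953 for Syx1A (0.837 to 1.09), 1.10 for cac (0.981 to 1.24) and 1.12 for cpx (0.773 to 1.61). For cac and cpx these ratios lay above 1, while the FPKM ratios lay below 1, and the intervals of both scales included 1. The number of reads per FPKM differed by more than 1.5 times from the depth factor in 3 of the 9 genes above 0 in both libraries: nAcRbeta-64B (4.11 times), Rdl (2.52) and brp (0.570). The same held for 2.39% of 3305 genes with 2 or more transcripts and 0.127% of those with 1.

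**Figure D4:**
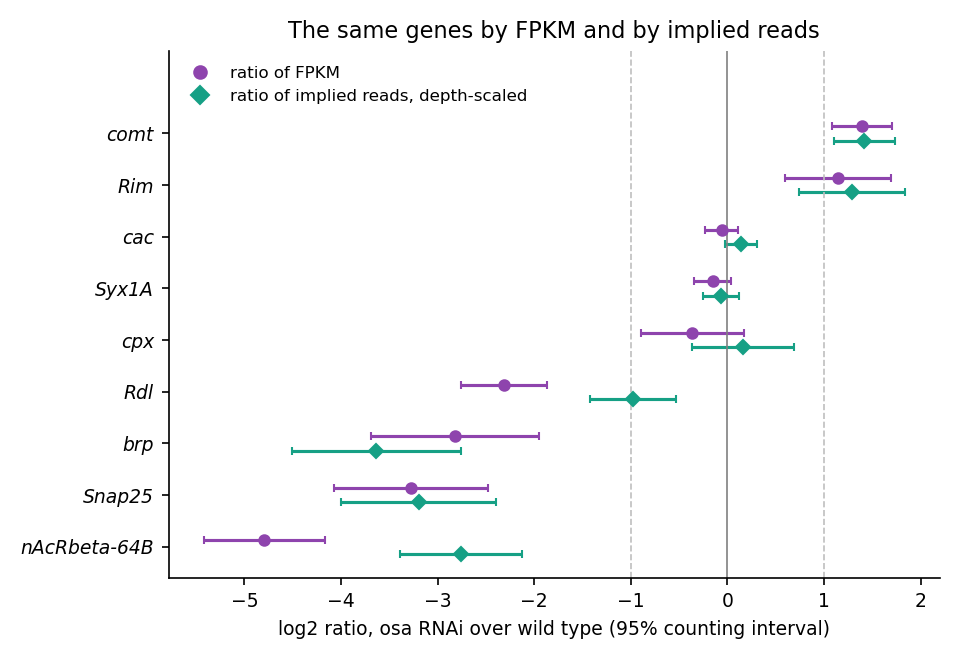
Log2 ratio of osa RNAi over wild type for the 9 genes above 0 in both libraries, from FPKM (purple circles) and from implied reads scaled by depth (green diamonds), with 95% counting intervals; dashed lines mark 2-fold. nAcRbeta-64B and Rdl lie closer to 0 by reads (-2.76 and -0.98) than by FPKM (-4.80 and -2.31), and Snap25, brp, comt and Rim lie beyond 2-fold on both.

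The order of the 10 genes by level changed between the libraries. In osa RNAi the order was Syx1A, comt, cac and cpx, each with bounds apart from the next, followed by Rim, Snap25, nAcRbeta-64B, Rdl and para, whose neighbours had overlapping bounds, and by brp, which lay apart. In wild type nAcRbeta-64B and Syx1A came first with overlapping bounds, then Snap25 and cac, again overlapping, then comt, Rdl and cpx, overlapping from one to the next, and last brp, Rim and para, each apart. The highest of them was a mid-range transcript in its library. Syx1A stood above 49.4% of the 8314 genes above 0 in osa RNAi, and nAcRbeta-64B above 57.9% of the 7772 in wild type. The wild type place of nAcRbeta-64B rests on 5.84 implied reads per FPKM, below the medians for both of its transcript lengths. It had 110.0 implied reads in wild type, beside 379.9 for Syx1A. Snap25 stood above 11.98% of genes in osa RNAi and 34.1% in wild type. brp stood above 1.65% of genes in osa RNAi and 8.97% in wild type.

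**Figure D5:**
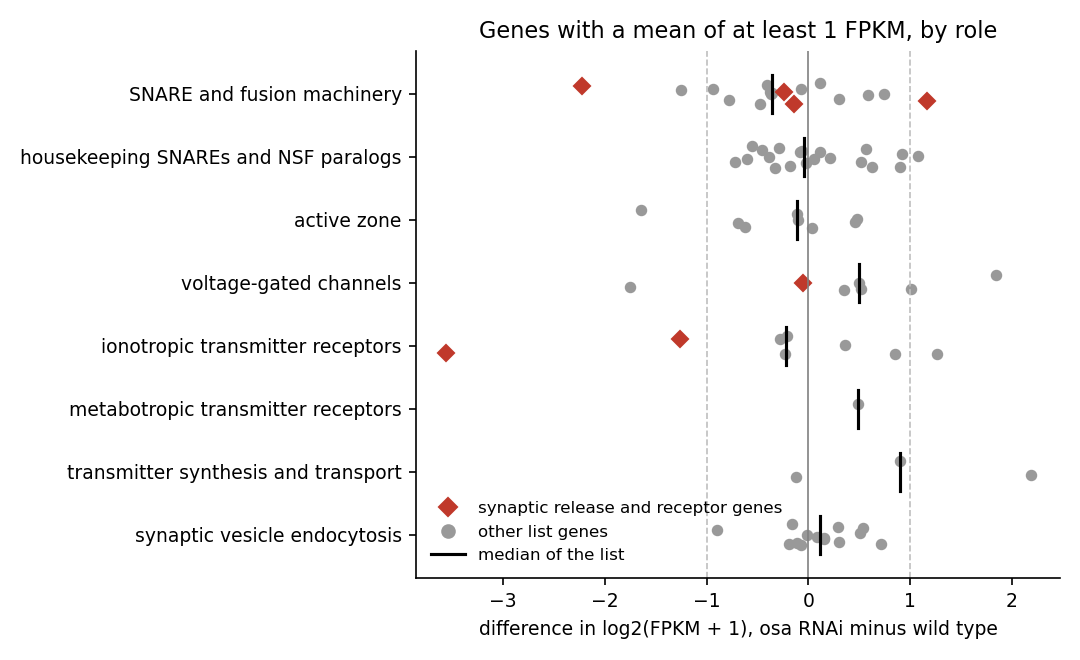
Difference in log2(FPKM + 1), osa RNAi minus wild type, of each measured gene in 8 lists of synaptic genes; red diamonds are genes of the set, grey points other list genes, black bars list medians, and dashed lines mark a difference of 1. nAcRbeta-64B (-3.56) and Snap25 (-2.22) are the lowest points, and the dopamine transporter gene DAT (2.18), listed at 0 in wild type, is the highest.

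Markers of ganglion mother cells and young neurons were lower in osa RNAi. By FPKM Snap25, Rdl and nAcRbeta-64B were also lower, whereas comt was higher and Syx1A, cpx and cac did not pass the rule. Of 12 neuronal markers, all in the files, 8 were measured. None passed the 2-fold rule on FPKM as higher and 2 were lower (nerfin-1 and Hey). Among all measured genes 7.78% were higher and 6.79% lower, and these shares stand beside all marker counts given here. The median of the measured neuronal markers was -0.54, and the 12 summed to 65.4 FPKM in osa RNAi and 116.7 FPKM in wild type. The pan-neuronal gene elav was at 30.5 FPKM in osa RNAi and 41.3 in wild type, so its transcript was present in a wild type sort labelled as free of neurons. Some other neuronal markers stood higher in osa RNAi. Syt1 was 2.82-fold higher by FPKM (1.67 to 4.78) and VGlut 2.78-fold (1.95 to 3.95), and by implied reads both passed the rule as higher, at 3.25-fold and 3.20-fold. Rbp9, an RNA-binding protein gene of the elav family, was under the limit of 1 FPKM on average, at 1.20 FPKM in osa RNAi and 0.345 in wild type. Gad1, of GABA synthesis, was listed at 0 in osa RNAi and at 0.866 FPKM in wild type. At an equal level, between 20 and 40 reads of Gad1 were expected in osa RNAi, where 39.1% of 550 such genes were listed at 0. No other neuronal marker was listed at 0 in either library, but the transmitter synthesis gene Cha rested on 1 implied read in osa RNAi. It was at 0.0215 FPKM in osa RNAi and 0.538 in wild type. Short of the rule, fne was at 6.70 FPKM in osa RNAi and 11.3 in wild type, with a ratio of implied reads of 0.996. onecut was at 12.8 and 20.6 FPKM, n-syb at 2.78 and 3.86, and futsch, under the limit of 1 FPKM on average, at 1.06 and 0.826. Of 5 markers of ganglion mother cells and early neurons, 4 were lower and none was higher, with a median of -1.55 and a summed level of 61.7 FPKM in osa RNAi and 176.7 FPKM in wild type. nerfin-1 and Hey stand in both lists: nerfin-1 was at 3.24 FPKM in osa RNAi and 24.3 in wild type, and Hey at 2.90 and 11.2 FPKM. The part of these cells in the differences of the synaptic genes was not tested, and in bulk samples fewer cells of a type and less RNA per cell cannot be told apart. Of 12 neuroblast and progenitor markers, 2 were higher and 1 was lower, with a median of 0.37 and sums of 813 FPKM in osa RNAi and 602 in wild type.

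Markers of other cells that a brain sort could hold were mostly low. Of 10 glial markers, 4 were measured, with 1 higher (loco) and 1 lower (gcm) and sums of 250.5 FPKM in osa RNAi and 292 in wild type, carried by nrv2 and Eaat1. By implied reads loco was 1.88-fold higher in osa RNAi and did not pass. The glial factor gene repo was at 0.709 FPKM in osa RNAi and listed at 0 in wild type, and alrm and Mdr65 were listed at 0 in both. Of 9 muscle genes, 1 was measured (Zasp66, 2.22 FPKM in osa RNAi and listed at 0 in wild type). For repo and Zasp66, 20 to 40 reads were expected in wild type at an equal level, where 35.8% of 572 such genes were listed at 0. The muscle genes summed to 2.92 FPKM in osa RNAi and 2.12 in wild type, and up and Tm2 were listed at 0 in both. Of 6 fat body genes, 1 was measured, with sums of 4.10 FPKM in osa RNAi and 4.42 in wild type, and Lsp2, Lsp1beta and Fbp2 were at 0 in both. Of 8 haemocyte genes, 2 were measured, with sums of 203 and 273 FPKM in osa RNAi and wild type carried by the ferritin gene Fer1HCH. The other measured gene, He, was lower, listed at 0 in osa RNAi and at 4.29 FPKM in wild type, and its locus overlaps another gene. At an equal level, between 20 and 40 reads of He were expected in osa RNAi, where 39.1% of 550 such genes were listed at 0. nimC1 was listed at 0 in both. The part of these cells in the differences of the synaptic genes was likewise not tested.

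None of the 10 genes stood among the 15 genes of the authors' deposited table of differential expression, which holds genes at a false discovery rate of 0.01.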

How the data were processed

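For each library the authors deposited FPKM values with lower and upper bounds and a status per gene, per the file headers. Tools listed, with no role, in the submitters' processing notes include Cufflinks 1.3.0 and TopHat 1.4.1 as well as BWA 0.6.1, DESeq 1.8.3 and HTSeq. PolyA RNA was made into strand-specific libraries, per the labels' protocols. No genome build, annotation or strand setting is given in the sources read. File starts were raised by 1, because 1471 of 13575 identifiers shared with BDGP6 had that start there and 33 had the unshifted one.

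The authors also deposited, for 15 genes, normalized counts (a signal), their ratio as a fold, its log2, and a p-value with its adjusted p-value; it was used for membership and for 1 check.

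The bounds lie at FPKM ± 2 × FPKM/√n. For genes with 1 transcript and under 50 reads, n was whole within 0.02 for 94.1% of 1011 in osa RNAi and 93.6% of 839 in wild type, and n was taken as implied reads. For genes with more transcripts n need not be whole (in the set it was for 4 of 10 values in osa RNAi and 4 of 9 above 0 in wild type), and is an effective number. Against the counts behind 25 values of the authors' table, n was 1.05 times as high in the median (0.717 to 3.75). No molecular identifiers are named in the protocols, so intervals cover counting error only.

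Differences are of log2(FPKM + 1) with a pseudocount of 1, computed with Python 3.11.15, pandas 2.3.3 and NumPy 2.4.6. Ratios have 95% intervals from the implied reads. Values of 0 entered no ratio. Of 236 list names, 232 were found in the files, 10 of them by identifier. The rule for named genes took the 10 genes, fixed paralogs, markers, osa, and up to 4 further genes per list with the largest differences among those measured; TipE family genes, Syx4 and list members given at 0 were named after their values were seen. The genes and lists were chosen with earlier results of these data known. Alternatives were other pseudocounts, filters, thresholds and scalings, and implied reads.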

Additional observations from a re-analysis of the deposited data

How the results depend on the processing

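Of the genes of the set, 4 passed the 2-fold rule under 9 of the 12 alternatives of FPKM processing. With a pseudocount of 5, with a mean of at least 5 FPKM or with a threshold of 3-fold, 2 passed, and with implied reads 3 passed. Over the 8 lists, 12 of 78 measured genes passed as deposited, 6 as higher and 6 as lower, where 14.6% of all measured genes passed. The list count was 2 with a pseudocount of 5, 27 at 1.5-fold and 6 at 3-fold. It was 23 of 149 without a minimum level and 4 of 51 with a mean of at least 5 FPKM. With implied reads 11 of 77 were higher and 5 lower. Over all genes 1041 passed, against 263 with a pseudocount of 5, 441 with a mean of at least 5 FPKM, 2242 at 1.5-fold, 532 at 3-fold and 571 without overlapping loci. The median of the set was -0.24 as deposited, -0.34 and -0.11 with pseudocounts of 0.1 and 5, -0.10 with a mean of at least 5 FPKM, -1.26 without overlapping loci (5 genes) and -0.069 with implied reads. The smaller numbers under stricter levels and thresholds or without overlapping loci follow from testing fewer genes or asking for more. The larger numbers at 1.5-fold or without a minimum level follow from asking for less or testing more genes. A pseudocount of 5 shrinks every difference. For the remaining changes the cause was not tested. Among the genes of the set past the rule, none changed sign under these alternatives. No paired analysis was possible because each genotype has 1 library, and none could be left out. For para no ratio is given, since it was listed at 0 in wild type, with 38.4 reads expected at an equal level. Why para was listed at 0 there was not tested. Among the genes above 0 in both libraries, depth limits brp, Snap25 and nAcRbeta-64B most, with 11.8, 14.6 and 25.0 implied reads in osa RNAi.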

Other observations

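Of 15 genes of synaptic vesicle endocytosis in the files, 14 were measured and none passed the 2-fold rule, with a median of 0.12. The largest differences were those of endoA, the endophilin gene, at 9.81 FPKM in osa RNAi and 19.2 in wild type, Bap, a clathrin adaptor gene, at 30.9 and 18.5 FPKM, the lipid phosphatase gene synj at 4.64 and 2.90 FPKM, and stnB at 2.94 and 1.77 FPKM.

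Of 19 genes of transmitter synthesis and transport, 3 were measured. DAT, the dopamine transporter gene, was at 3.54 FPKM in osa RNAi from 145 implied reads and listed at 0 in wild type. It alone of these passed the 2-fold rule, as higher, where 7.78% of all measured genes were higher. Between 80 and 160 reads of DAT were expected in wild type at an equal level, where 1.94% of 723 such genes were listed at 0. The vesicular glutamate transporter gene VGlut was at 2.61 FPKM in osa RNAi and 0.940 in wild type, and the glutamate transporter gene Eaat1 at 115.2 and 126 FPKM. Of 20 metabotropic receptor genes, 1 was measured, GABA-B-R2, at 4.19 FPKM in osa RNAi and 2.70 in wild type, and 8 were listed at 0 in both.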
